A study of Mus musculus with 2 samples.

Results

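The kinesin family genes were taken as the gene symbols made of Kif, a number and optional lower-case letters that had 1 or more UMI (unique molecular identifier, the tag of 1 captured RNA molecule) in the expression matrix. This gave 36 members of 17256 genes with a UMI. By known role, 11 are mitotic kinesins, 13 are transport kinesins and 11 are ciliary, microtubule-regulating or other kinesins. The last, Kif1bp, encodes a kinesin-binding protein that is no motor itself and was kept in no class. Kinesins written in other ways, such as Kifc1 and Cenpe, were not members and were read among the partner genes.

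The cells were erythroid progenitors from the fetal liver of C57BL/6 mice at E14.5 (embryonic day), labelled as low in CD71 and CD24 and profiled by 10x 3' sequencing (kit version 3). A hashed library held 4 isolations, the fluorescence-sorted FACS CFU-E (167 cells) and FACS BFU-E (233 cells) and the PE-high (294 cells) and PE-low (208 cells) pools, here read as the magnet method that the labels name. In a CITE-seq library, stained with barcoded antibodies to CD117 and CD71, the deposited table named 195 cells CS CFUE and 122 cells CS BFUE, and 2136 cells carried no pool name. BFU-E (burst-forming unit-erythroid) is the earlier and CFU-E (colony-forming unit-erythroid) the later progenitor. The labels give the strain and no other genotype, and no difference in age or treatment between pools. The labels mention 100 uM dexamethasone (a glucocorticoid) or methanol in a culture of 10 days, but the sources used here do not say whether the sequenced cells had been cultured. Each pool is 1 sample, so there is no replicate, no comparison was tested, and every interval below is a 95% interval of counting error only. The sources used here do not say how cells were assigned to pools or how many embryos a pool held.

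The pools carried 2968491 to 11003022 UMIs, with a median of 23449 to 38663.5 UMIs per cell, and the libraries shared 0 cell barcodes. The summed level of 5 CFU-E stage markers (Klf1, Epor and others) was 1474 and 332 CPM in FACS CFU-E and FACS BFU-E, 1315 and 406 CPM in PE-high and PE-low, and 1068 and 222 CPM in CS CFUE and CS BFUE, where CPM is UMIs per 1000000 UMIs of the pool. The stage names therefore went with their markers in all 3 pairs. Cells rich in granulocyte and monocyte transcripts (5 or more such UMIs per 10000) numbered 0 of the FACS CFU-E cells and 76 of the FACS BFU-E cells, 19 of PE-high and 53 of PE-low, and 3 of CS CFUE and 42 of CS BFUE. The 10 markers behind this count, of which 8 to 10 had a UMI in a named pool, summed to 9.15 and 1578 CPM, 257 and 1099 CPM, and 22.4 and 833 CPM in the same pairs. Globin-rich cells (20 or more globin UMIs per 10000) numbered 6 and 0, 58 and 0, and 12 and 1 in the same pairs. Over all pools, including the cells with no pool name, summed endothelial markers stayed between 0.160 and 14.51 CPM and lymphoid markers between 1.37 and 15.0 CPM. Mast cell markers lay between 0.321 and 28.0 CPM and megakaryocyte markers between 5.33 and 32.0 CPM. Summed hepatocyte markers were 1.44 to 2.58 CPM in the hashed pools and 24.9 to 124.1 CPM in the CITE-seq cells.

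Kinesins are motor proteins that use ATP to walk along microtubules or to shorten them. Mitotic kinesins build the spindle, move chromosomes and divide the cell, and their transcripts in cycling cells are known to accumulate toward G2 and M. Transport kinesins carry vesicles, endosomes and mitochondria in cells at any stage of the cycle. Erythroid progenitors of the fetal liver divide rapidly, and mutation of human KIF23 causes a congenital dyserythropoietic anaemia with multinucleate erythroblasts.

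Promoters are shown first, because motifs known from genes of the cell cycle can be read in them directly. Many genes of G2 and M carry a CHR element (cell cycle genes homology region, TTTGAA), which is bound by the MuvB-containing DREAM complex, and CCAAT boxes, which are bound by NF-Y. RefSeq promoter windows on GRCm38.p6, from 250 bases before to 50 bases after the start, were found for 30 members, with 34 windows in all. The windows of the 5 mitotic members with a mean level of at least 50 CPM and an entry outside the chromosomes not shown are given 5′ to 3′ on the strand of the gene. Capitals mark TTTGAA or its reverse complement TTCAAA, and CCAAT or its reverse complement ATTGG, and no motif overlapped a different one. Kif22 lies at chr7:127042371-127042670 on the minus strand, Kif23 at chr9:61946750-61947049 on the minus strand, Kif15 at chr9:122950831-122951130 on the plus strand, Kif20b at chr19:34922108-34922407 on the plus strand and Kif11 at chr19:37376132-37376431 on the plus strand.
Kif22: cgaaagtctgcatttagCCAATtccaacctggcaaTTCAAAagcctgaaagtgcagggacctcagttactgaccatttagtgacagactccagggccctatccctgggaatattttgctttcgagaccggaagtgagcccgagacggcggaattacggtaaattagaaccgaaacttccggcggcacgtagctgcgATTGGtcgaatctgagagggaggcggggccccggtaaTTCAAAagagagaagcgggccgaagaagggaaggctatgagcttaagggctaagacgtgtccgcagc
Kif23: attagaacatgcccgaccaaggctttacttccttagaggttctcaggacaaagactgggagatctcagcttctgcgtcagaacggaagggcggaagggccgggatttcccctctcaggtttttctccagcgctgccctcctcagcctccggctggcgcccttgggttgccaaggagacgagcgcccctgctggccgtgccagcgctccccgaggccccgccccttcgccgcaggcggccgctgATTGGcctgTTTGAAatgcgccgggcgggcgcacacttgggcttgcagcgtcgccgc
Kif15: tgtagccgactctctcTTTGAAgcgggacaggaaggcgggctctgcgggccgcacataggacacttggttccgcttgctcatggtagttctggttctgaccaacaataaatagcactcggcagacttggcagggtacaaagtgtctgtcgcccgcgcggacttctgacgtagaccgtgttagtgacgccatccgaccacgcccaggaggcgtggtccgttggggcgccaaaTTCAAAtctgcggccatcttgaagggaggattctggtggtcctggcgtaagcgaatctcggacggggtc
Kif20b: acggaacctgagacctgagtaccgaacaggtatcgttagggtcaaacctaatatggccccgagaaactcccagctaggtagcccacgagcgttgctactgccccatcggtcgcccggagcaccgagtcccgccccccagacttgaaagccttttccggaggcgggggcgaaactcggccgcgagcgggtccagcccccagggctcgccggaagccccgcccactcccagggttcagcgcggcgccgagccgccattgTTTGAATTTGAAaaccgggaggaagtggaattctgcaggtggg
Kif11: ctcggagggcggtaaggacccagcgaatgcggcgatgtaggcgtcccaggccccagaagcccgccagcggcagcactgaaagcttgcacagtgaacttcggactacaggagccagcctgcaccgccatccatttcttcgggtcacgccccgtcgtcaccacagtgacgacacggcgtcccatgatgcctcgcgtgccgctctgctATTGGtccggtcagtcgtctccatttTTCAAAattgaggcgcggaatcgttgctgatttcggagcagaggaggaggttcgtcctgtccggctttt

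TTTGAA on either strand stood in 9 of 10 mitotic promoters, in 1 of 12 transport promoters and in 2 of 12 promoters of the other kinesins, against 17.9% of all 32851 promoters of the table. CCAAT on either strand stood in 6 of 10 mitotic, 4 of 12 transport and 4 of 12 other promoters, against 37.4% of all promoters. Both motifs stood together in 6 of 10 mitotic, 0 of 12 transport and 2 of 12 other promoters, against 6.95% of all. Kif18a was the mitotic member with an entry but without TTTGAA in this window. In Kif22, Kif15 and Kif11 a TTCAAA began 17, 19 and 19 bases before the start, and in Kif20b the pair of adjacent TTTGAA began at positions 8 and 14, counting the base at the start as 1. These are matches of letters in a window, not binding measurements.

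The fetal liver progenitors expressed a short list of kinesins at clear levels. A mean of at least 20 CPM over the 6 named pools was reached by 14 members, which were Kif5b, Kif3a, Kif2a, Kif1bp and 10 of the 11 mitotic kinesins. A further 9 members lay between 5 and 20 CPM. The remaining 13 members, most of them known from neurons or cilia, stayed at or below 3.53 CPM in every named pool. Because the chemistry tags the 3' end once per molecule, levels were not divided by transcript length, and capture can still differ between genes.

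**Figure D1:**
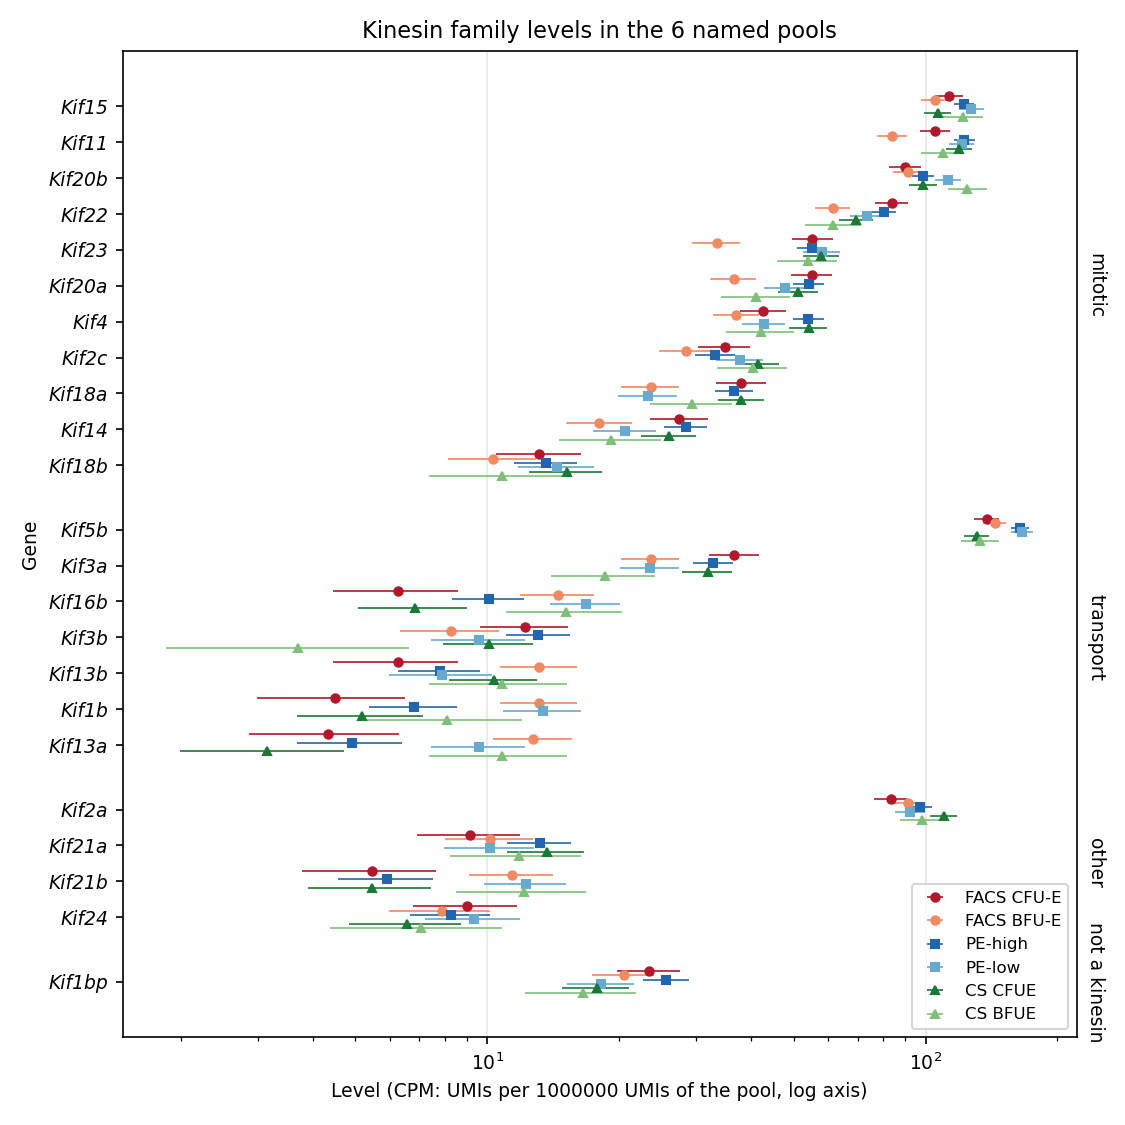
Level of the 23 members with a mean of at least 5 CPM, in CPM on a log axis, in the 6 named pools, with 95% Poisson intervals of counting error as bars, and each pool being 1 sample. Mitotic kinesins fill the upper block between about 10.3 and 127.2 CPM, while Kif5b stands apart from the other transport kinesins at 130.8 to 166.3 CPM.

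Among mitotic kinesins, Kif15 and Kif11 were the highest. Kif15, a plus-end motor that helps hold the spindle bipolar, had 113.1 CPM in FACS CFU-E and 105.1 CPM in FACS BFU-E, 122.5 CPM in PE-high and 127.2 CPM in PE-low, and 106.7 CPM in CS CFUE and 121.9 CPM in CS BFUE. Kif11, the motor that crosslinks antiparallel microtubules and pushes the poles apart, had 105.1 and 83.8 CPM, 122.7 and 121.0 CPM, and 119.3 and 109.5 CPM in the same order of pools. FACS BFU-E was thus the low pool for Kif11, and the other 5 pools lay between 105.1 and 122.7 CPM.

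Kif20b, which acts late in cytokinesis, lay below both in mean level, with 90.0 and 91.0 CPM in FACS CFU-E and FACS BFU-E, 98.7 and 112.6 CPM in PE-high and PE-low, and 98.9 and 124.6 CPM in CS CFUE and CS BFUE. It was the mitotic member whose later pool did not exceed the earlier pool in any of the 3 pairs. Kif22, a chromokinesin that pushes chromosome arms outward from the poles, had 83.8 and 61.4 CPM, 80.3 and 73.4 CPM, and 69.6 and 61.6 CPM. The Kif22 level was higher in the later pool of each pair, by less than 1.5-fold in each.

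Kif23, Kif20a and Kif14, motors of the central spindle and of cytokinesis, came next. Kif23, which forms centralspindlin with Racgap1, had 55.2 CPM in FACS CFU-E and 33.4 CPM in FACS BFU-E, 55.2 CPM in PE-high and 58.0 CPM in PE-low, and 57.8 CPM in CS CFUE and 53.9 CPM in CS BFUE. Kif20a, which brings the chromosomal passenger complex to the midzone, had 55.0 and 36.5 CPM, 54.2 and 47.9 CPM, and 51.2 and 41.1 CPM in that order. Kif14, which binds citron kinase at the midbody, was lower, with 27.4 and 18.03 CPM, 28.4 and 20.6 CPM, and 26.0 and 19.2 CPM. Kif20a and Kif14 were higher in the later pool of all 3 pairs, whereas the Kif23 levels of PE-high and PE-low were within counting error of each other.

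The motors of chromosomes and kinetochores followed. Kif4, a chromokinesin that binds Prc1 and condensin, had 42.7 and 37.0 CPM in FACS CFU-E and FACS BFU-E, 54.1 and 42.8 CPM in PE-high and PE-low, and 54.1 and 42.1 CPM in CS CFUE and CS BFUE. Kif2c, which removes tubulin from microtubule ends at centromeres, had 34.8 and 28.3 CPM, 33.1 and 37.7 CPM, and 41.4 and 40.4 CPM. Kif18a, which dampens chromosome oscillation at the metaphase plate, had 38.0 and 23.6 CPM, 36.6 and 23.3 CPM, and 38.0 and 29.3 CPM. For Kif18a the 3 later pools lay within 36.6 to 38.0 CPM, above all 3 earlier pools. Kif18b, which limits astral microtubules, was the low mitotic member at 10.3 to 15.2 CPM. Pseudogenes of Kif22 and Kif4 are listed by RefSeq, and the sources used here do not say how reads shared with a copy were counted.

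The transport class was mostly Kif5b, the ubiquitous heavy chain of conventional kinesin, which carries mitochondria, lysosomes and other cargo. Kif5b had 137.8 and 143.9 CPM in FACS CFU-E and FACS BFU-E, 164.6 and 166.3 CPM in PE-high and PE-low, and 130.8 and 133.1 CPM in CS CFUE and CS BFUE. Its stage ratios were 0.96 (95% interval 0.87 to 1.05), 0.99 (0.92 to 1.07) and 0.98 (0.87 to 1.11), so each pair differed by less than counting error could resolve. The neuronal heavy chains of the same motor were near 0, with 2 UMIs of Kif5a and 10 UMIs of Kif5c in all cells.

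Kif3a, a motor subunit of heterotrimeric kinesin-2, had 36.6 CPM in FACS CFU-E and 23.6 CPM in FACS BFU-E, 32.8 CPM in PE-high and 23.6 CPM in PE-low, and 31.8 CPM in CS CFUE and 18.5 CPM in CS BFUE. Its partner subunit Kif3b had 12.2 and 8.27 CPM, 13.1 and 9.60 CPM, and 10.1 and 3.71 CPM. Both subunits were higher in the later pool of all 3 pairs. Kifap3, which encodes the non-motor subunit that joins them and was read among the partner genes, was lower in the later pools, with 8.66 and 17.9 CPM, 10.9 and 17.9 CPM, and 12.2 and 26.9 CPM. Its ratios were 0.48 (0.35 to 0.67), 0.61 (0.47 to 0.79) and 0.45 (0.33 to 0.62), against the direction of Kif3a and Kif3b. The alternative, mainly neuronal subunit Kif3c had 16 UMIs in all cells. Kif2a, which shortens microtubules at spindle poles and in interphase and was counted among the other kinesins, had 83.4 and 91.3 CPM, 97.3 and 92.2 CPM, and 110.0 and 98.4 CPM. Kif1bp had 23.4 and 20.5 CPM, 25.6 and 18.2 CPM, and 17.8 and 16.5 CPM.

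Of the members near 0, Kif1a and Kif12 had 0 UMIs in each of the 6 named pools, which allows a level of up to 0.273 CPM in PE-high, the deepest pool, and 1.01 CPM in CS BFUE, the shallowest, at 3 counts a pool. Kif6, Kif27, Kif26a and Kif26b had 5 to 10 UMIs in all cells. Kif17 and Kif9 had 42 and 43 UMIs, Kif7 had 108 UMIs and Kif1c had 147 UMIs. Kif7, a regulator of Hedgehog signalling in cilia, reached 3.53 CPM in PE-low, the highest value of these 13 members in a named pool.

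The stage comparisons asked whether kinesins differ between CFU-E and BFU-E as each method separates them. Summed over the class, mitotic kinesins were at 658 CPM in FACS CFU-E and 528 CPM in FACS BFU-E, a ratio of 1.25 (1.19 to 1.30). The same sum was 699 CPM in PE-high and 679 CPM in PE-low, a ratio of 1.03 (0.99 to 1.07), and 678 CPM in CS CFUE and 655 CPM in CS BFUE, a ratio of 1.04 (0.98 to 1.09). The class difference was therefore clear of counting error between the FACS pools and not between the others. Transport kinesins summed to 210 and 233 CPM, 241 and 251 CPM, and 200 and 202 CPM, with ratios of 0.90 (0.84 to 0.97), 0.96 (0.91 to 1.02) and 0.99 (0.90 to 1.09).

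A member was called higher or lower at a ratio past 1.5-fold when its mean over the 2 pools was at least 20 CPM. Of 14 members that passed this level in the FACS pair, 5 were higher in FACS CFU-E than in FACS BFU-E and 0 were lower, where 8.66% of all 5529 genes at this level were higher and 10.2% were lower. The 5 were Kif23 with a ratio of 1.65 (1.40 to 1.96), Kif18a with 1.61 (1.32 to 1.97), Kif3a with 1.55 (1.27 to 1.90), Kif14 with 1.52 (1.21 to 1.92) and Kif20a with 1.51 (1.28 to 1.78). The median log2 ratio of the 14 members was 0.31, against 0.02 over all genes. All 5 lower bounds fell below 1.5, and with cells rich in granulocyte and monocyte transcripts left out, Kif23 alone remained past it.

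Between PE-high and PE-low, 1 of 14 members was called, Kif18a at 1.57 (1.31 to 1.90), where 5.87% of genes were higher and 7.55% lower. It was 1.36 without globin-rich cells and 1.44 with equal weight for 4 quartiles of cells by cell cycle, which ended the call. Between CS CFUE and CS BFUE, 1 of 13 members was called, Kif3a at 1.72 (1.28 to 2.35), where 9.99% of genes were higher and 9.38% lower. Both counts are a share near the background. The median log2 ratio of the members was 0.10 in the PE pair and 0.16 in the CS pair, against 0.00 and 0.05 over all genes. Kif18a in the CS pair had a ratio of 1.30 (1.02 to 1.67), and Kif3a in the PE pair had 1.39 (1.16 to 1.68).

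**Figure D2:**
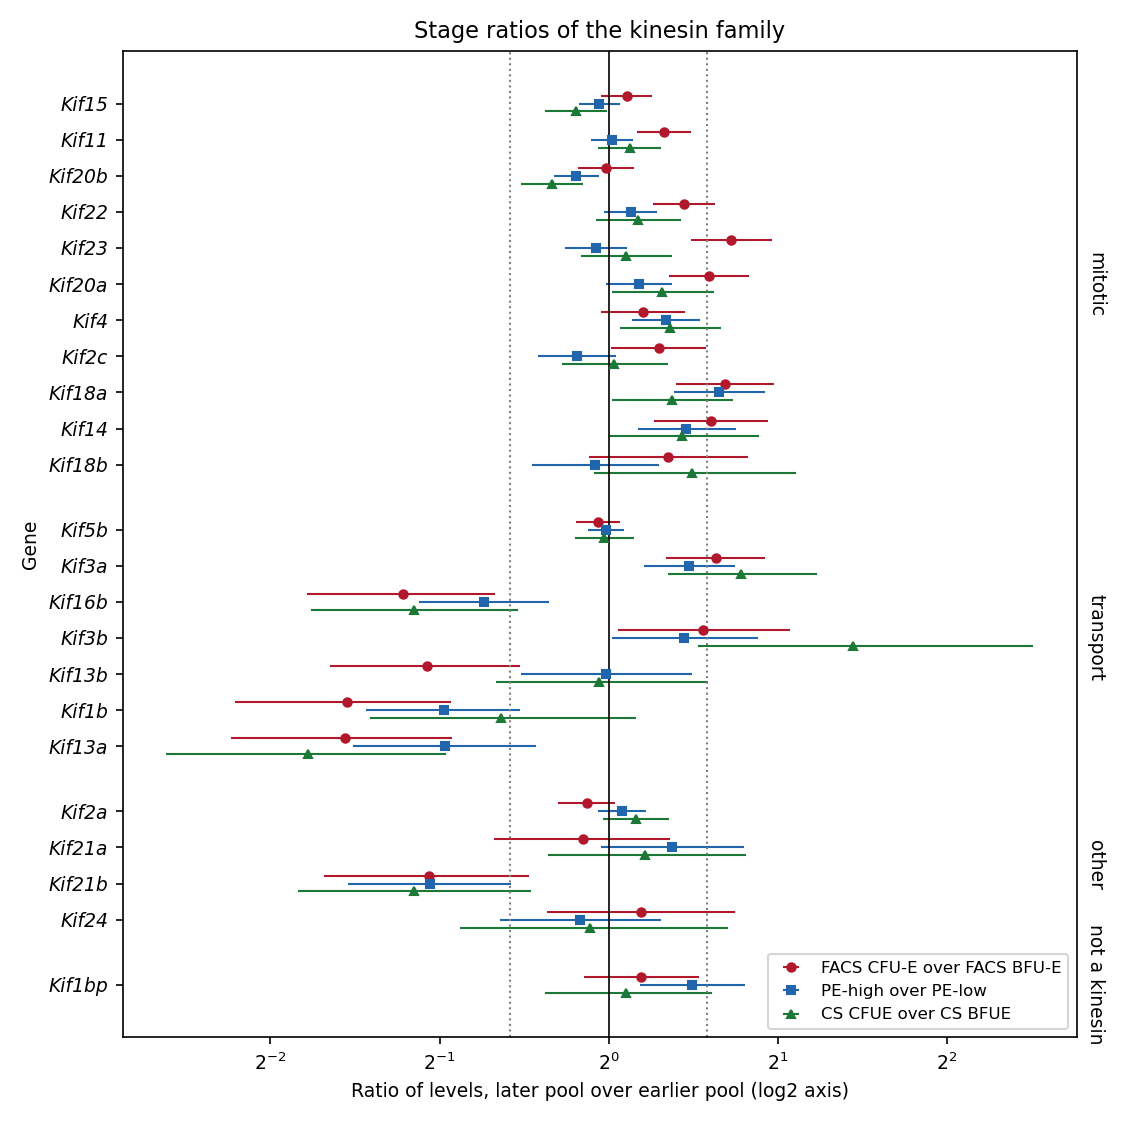
Ratio of levels, later over earlier pool, for the 23 members with a mean of at least 5 CPM, on a log2 axis, with 95% intervals of counting error, for the 3 stage pairs; dotted lines mark 1.5-fold either way. Kif16b, Kif13a, Kif1b and Kif21b lie left of the 1.5-fold line in all 3 pairs, Kif3a and Kif18a lie right of 1, and Kif5b and Kif2a stay close to 1.

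Below 20 CPM, with a level of at least 5 CPM as the added setting, 4 members were lower by more than 1.5-fold in the later pool of all 3 pairs. They were chosen after their values were seen. The share of all genes lower by more than 1.5-fold in all 3 pairs was not computed, so this count is not read as a trait of the family. Kif13b, Kif7, Kif17 and Kif3c also had lower values in each later pool, Kif13b within 1.5-fold in the PE and CS pairs and the others at no more than 3.53 CPM. Kif16b, a motor of early endosomes, had 6.26 CPM in FACS CFU-E and 14.51 CPM in FACS BFU-E, 10.1 CPM in PE-high and 16.8 CPM in PE-low, and 6.83 CPM in CS CFUE and 15.2 CPM in CS BFUE. Kif13a, a motor of recycling endosomes, had 4.33 and 12.7 CPM, 4.91 and 9.60 CPM, and 3.14 and 10.8 CPM in that order. For both genes the later pools were low and the earlier pools high.

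Kif1b, which carries mitochondria and vesicle precursors in neurons, had 4.49 CPM in FACS CFU-E and 13.2 CPM in FACS BFU-E, 6.82 CPM in PE-high and 13.4 CPM in PE-low, and 5.19 CPM in CS CFUE and 8.08 CPM in CS BFUE. Kif21b, a regulator of microtubule growth, had 5.46 and 11.4 CPM, 5.91 and 12.3 CPM, and 5.47 and 12.1 CPM. The ratios of the 4 genes ran between 0.34 and 0.48 in the FACS pair, between 0.48 and 0.60 in the PE pair and between 0.29 and 0.64 in the CS pair. The upper bound was below 1 in each of these except Kif1b in the CS pair, at 0.64 (0.38 to 1.12). Read over the pools at once, the 3 later pools lay below the 3 earlier pools in these 4 of 23 members, as in 22.6% of all 8517 genes at this level, and above them in 5 (Kif20a, Kif18a, Kif3a, Kif14 and Kif3b), against 15% of genes. At a mean of at least 20 CPM, 4 of 14 members lay wholly above and 0 wholly below, against 16.8% and 17% of genes.

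At this lower level the FACS pair had 5 members higher and 5 lower of 23, where 9.47% of genes were higher and 17.1% lower. The PE pair had 1 higher and 4 lower, where 6.91% were higher and 14.1% lower, and the CS pair had 2 higher and 4 lower, where 11.0% were higher and 16.6% lower. The fifth lower gene of the FACS pair was Kif13b, with 6.26 CPM in FACS CFU-E and 13.2 CPM in FACS BFU-E, and its levels were within counting error of each other in the other pairs. The second higher gene of the CS pair was Kif3b, with a ratio of 2.73 (1.44 to 5.70) on 3.71 CPM in CS BFUE.

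Cells rich in granulocyte and monocyte transcripts were more numerous in the earlier pools, so the 4 ratios were taken again without them. Kif16b then had 0.45 in the FACS pair, 0.57 in the PE pair and 0.45 in the CS pair. Kif13a had 0.43, 0.56 and 0.26, Kif1b had 0.38, 0.46 and 0.66, and Kif21b had 0.45, 0.45 and 0.70. The direction was therefore the same without these cells, and in the CS pair Kif21b was no longer past 1.5-fold.

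The 2136 cells with no pool name, which entered none of these pairs, were split into 4 quartiles of 534 cells by the share of UMIs from the CFU-E stage markers. From the lowest to the highest quartile, Kif1b had 8.20, 4.21, 3.64 and 2.22 CPM and Kif13a had 5.61, 3.75, 3.06 and 2.42 CPM. Kif21b had 7.18, 4.51, 3.51 and 3.49 CPM, and Kif16b had 10.7, 7.73, 5.62 and 6.45 CPM. All 4 were lower in the highest than in the lowest quartile, with ratios of 0.27 (0.18 to 0.40), 0.43 (0.28 to 0.65), 0.49 (0.34 to 0.68) and 0.60 (0.46 to 0.78). Without cells rich in granulocyte and monocyte transcripts these ratios were 0.34, 0.53, 0.69 and 0.64. The share of all genes that were lower along this split was not computed. Summed early progenitor markers (Cd34, Gata2 and others) fell much further over the quartiles of all these cells, with 232.8, 76.6, 36.1 and 11.4 CPM.

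Other members moved along the same split, chosen after their values were seen. Kif5b had 138.0, 123.4, 108.1 and 99.1 CPM, a ratio of highest to lowest of 0.72 (0.67 to 0.77), although its pool ratios were close to 1. Kif21a, a further regulator of microtubule growth, had 14.495, 14.9, 11.0 and 8.13 CPM, a ratio of highest to lowest of 0.56 (0.44 to 0.70). Kif23 had 44.0, 42.6, 55.3 and 79.7 CPM, and Kif18a had 27.7, 31.7, 39.3 and 46.7 CPM, both higher in the highest quartile. Kif3a had 24.8, 33.0, 26.9 and 25.9 CPM, so its pool difference did not recur along this split. Kif3b had 9.64, 9.48, 7.34 and 6.52 CPM, a ratio of highest to lowest of 0.68 (0.52 to 0.88), against its direction between the pools. The mitotic sum had a ratio of 1.35 (1.31 to 1.39) and the transport sum 0.72 (0.68 to 0.76). Globin-rich cells numbered 3, 31, 193 and 429 and cells rich in granulocyte and monocyte transcripts 140, 3, 0 and 1 over these quartiles, and the share of cells in the highest G2/M quartile of the library was 15.5%, 11.2%, 23.8% and 47.9%. The part of these in the kinesin values was not tested beyond the values given.

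**Figure D3:**
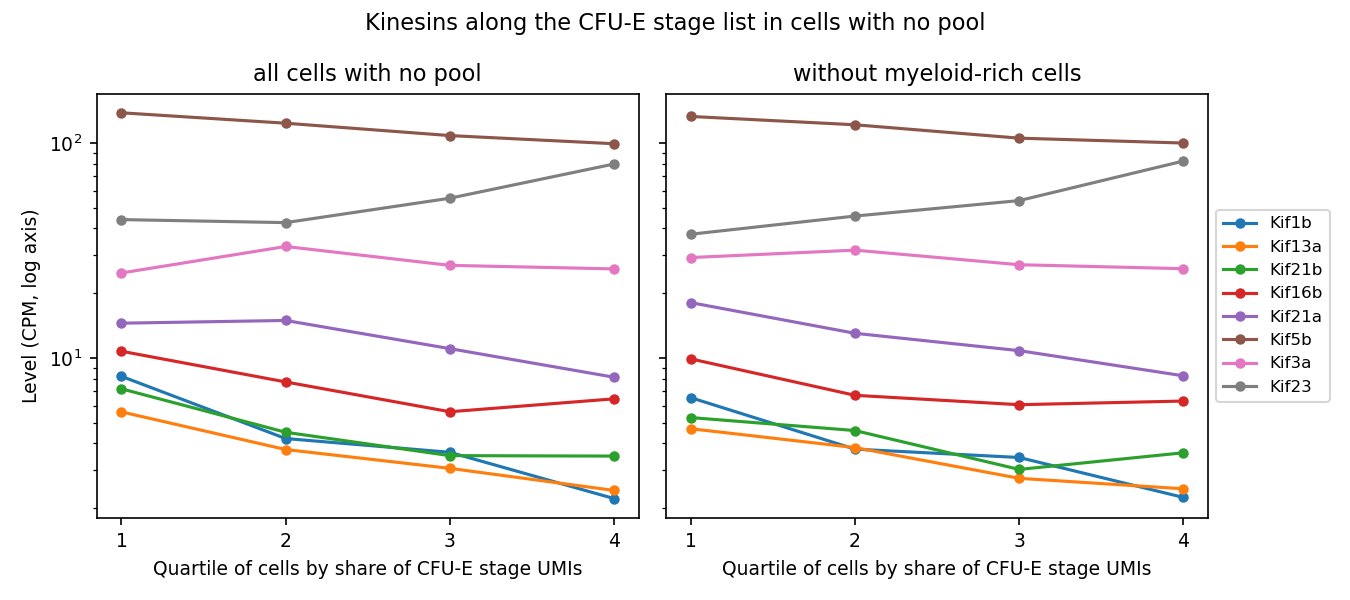
Level in CPM on a log axis of 8 members in the cells with no pool name, by quartile of cells from the lowest (1) to the highest (4) share of CFU-E stage UMIs, with all cells in the left panel and without myeloid-rich cells (those rich in granulocyte and monocyte transcripts) in the right panel. Kif1b is at 2.22 CPM in quartile 4, against 8.20 CPM in quartile 1 in the left panel, while Kif23 reaches 79.7 CPM, against 44.0 CPM.

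The cell cycle was read from 37 G2/M genes, none of them a kinesin, by ranking the cells of each library on their share of G2/M UMIs and comparing the highest with the lowest quartile. The mitotic sum was higher in the highest quartile and the transport sum was nearly level. In the hashed library the mitotic sum was 331, 506, 673 and 1005 CPM from the lowest to the highest quartile, a ratio of 3.04 (2.90 to 3.19), and in the CITE-seq library it was 340, 505, 683 and 933 CPM, a ratio of 2.74 (2.66 to 2.83). The transport sum was 220, 238, 239 and 242 CPM and 171, 176, 186 and 190 CPM, with ratios of 1.10 (1.03 to 1.17) and 1.12 (1.06 to 1.17).

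The mitotic members differed widely among themselves. No share of all genes past 2-fold was computed for these quartiles. Of the 10 mitotic members with a mean of at least 20 CPM, 9 passed 2-fold in the hashed library and 8 in the CITE-seq library. The steepest were Kif14 at 5.57 (4.15 to 7.59) and 4.51 (3.74 to 5.48), Kif23 at 5.32 (4.38 to 6.51) and 4.55 (4.03 to 5.15), and Kif11 at 4.98 (4.38 to 5.68) and 4.58 (4.20 to 5.01), hashed library before CITE-seq library. Kif2c, Kif4 and Kif18a lay between 2.97 and 3.56 in both libraries. The gentlest were Kif22 at 2.49 (2.18 to 2.85) and 1.97 (1.81 to 2.15) and Kif15 at 1.53 (1.38 to 1.69) and 1.68 (1.57 to 1.79). The Kif15 interval did not meet that of any other mitotic member in the same library.

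Kif18a, without TTTGAA in its promoter window, had a ratio like those of Kif2c and Kif4. Kif15, whose window holds the motif at 2 places, had the lowest ratio. A link between the motif and these ratios was not tested. By 43 S phase genes, Kif15 was also the mitotic member with the highest ratio between highest and lowest quartile, 1.12 (1.03 to 1.23) in the hashed library and 1.29 (1.21 to 1.37) in the CITE-seq library. Kif2c had 0.53 (0.45 to 0.63) and 0.66 (0.59 to 0.74) and Kif20b had 0.62 (0.56 to 0.69) and 0.72 (0.67 to 0.77), the 2 lowest in the CITE-seq library.

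Outside the mitotic class, the 3 motors with a mean of at least 20 CPM changed little with the G2/M share. Kif5b had a ratio of 1.16 (1.07 to 1.27) and 1.16 (1.09 to 1.24), Kif3a had 1.17 (0.96 to 1.42) and 1.07 (0.94 to 1.21), and Kif2a had 0.93 (0.83 to 1.03) and 1.01 (0.94 to 1.08). Kif2a, which also acts at the spindle, was thus level across G2/M quartiles, at 88.0 to 95.0 CPM in the hashed library and 101.9 to 103.6 CPM in the CITE-seq library. Below 20 CPM some members did change. Kif3b was higher in the highest quartile, at 1.68 (1.19 to 2.40) in the hashed library and 1.31 (1.03 to 1.67) in the CITE-seq library, the first above the Kif15 ratio of the same library. Kif24, a centriolar kinesin that restrains cilium formation, had 1.18 (0.82 to 1.70) and 1.57 (1.18 to 2.10), and Kif21a had 1.02 (0.73 to 1.41) and 0.62 (0.51 to 0.76). Of the 4 genes past 1.5-fold lower in the later pools, Kif16b, Kif21b and Kif13a had intervals that included 1 in both libraries, and Kif1b had 0.64 (0.46 to 0.88) and 0.76 (0.56 to 1.04).

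**Figure D4:**
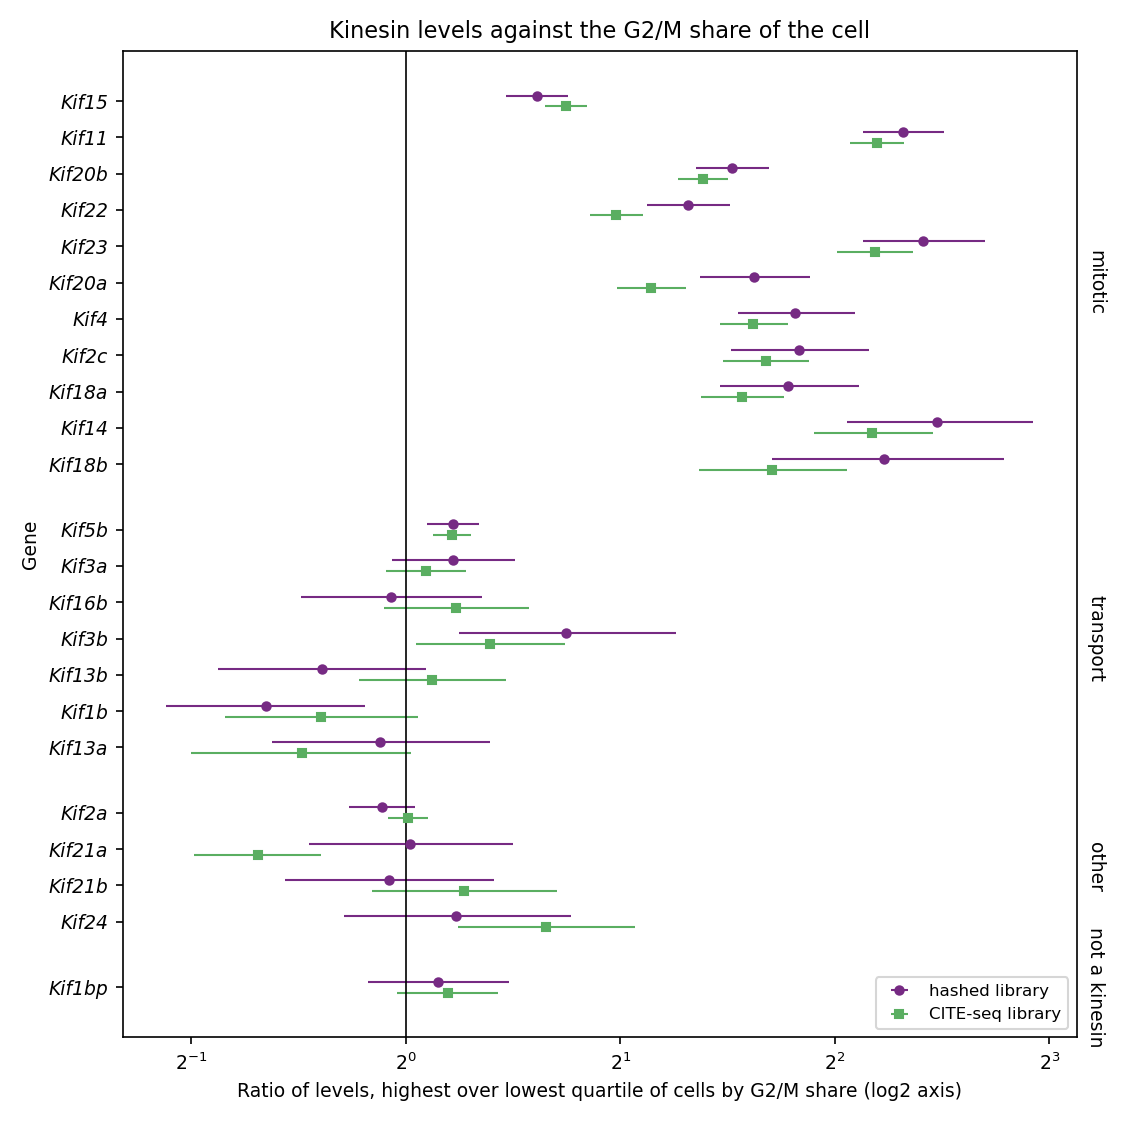
Ratio of levels, highest over lowest quartile of cells by share of G2/M UMIs, on a log2 axis, for the 23 members with a mean of at least 5 CPM in the hashed and the CITE-seq library, with 95% intervals of counting error. The mitotic block spans 1.53 to 5.57, with Kif15 nearest to 1, Kif5b, Kif3a and Kif2a lie between 0.93 and 1.17, and Kif3b reaches 1.68.

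The gradient of the mitotic sum was found within each pool, with ratios of 2.28 (1.98 to 2.64) in FACS CFU-E and 3.52 (3.24 to 3.83) in FACS BFU-E, 2.44 (2.20 to 2.71) in PE-high and 3.12 (2.86 to 3.41) in PE-low, and 2.38 (2.07 to 2.75) in CS CFUE and 3.90 (3.42 to 4.46) in CS BFUE. It was steeper in the earlier pool of each pair. The intervals did not meet, but they cover counting error only and not differences between samples. The lowest quartile held 15, 31 and 21 cells of FACS CFU-E, PE-high and CS CFUE. It held 113, 67 and 50 cells of FACS BFU-E, PE-low and CS BFUE. The quartiles were set over each library, so the G2/M share was not matched between pools within a quartile. Other features moved with these quartiles. From the lowest to the highest in the hashed library, the CFU-E stage markers had 404, 913, 1104 and 1138 CPM, cells rich in granulocyte and monocyte transcripts numbered 79, 18, 22 and 29, globin-rich cells numbered 1, 6, 21 and 37, and the median depth was 29493.5, 36908, 36614.5 and 40457.5 UMIs. In the CITE-seq library globin-rich cells numbered 52, 147, 179 and 291. Without cells rich in granulocyte and monocyte transcripts the ratio of the mitotic sum was 2.72 in the hashed library and 2.61 in the CITE-seq library.

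Per cell, thinned to 10000 UMIs, a UMI of Kif11 was found in 82.2% (76.6 to 87.0) of cells of the highest G2/M quartile of the hashed library and 30.1% (24.2 to 36.5) of the lowest, and of Kif23 in 63.6% (56.9 to 69.9) and 15.5% (11.0 to 20.9). Before thinning these shares were 98.7% and 61.1% for Kif11 and 94.7% and 35.8% for Kif23. For Kif5b the thinned shares were 80.0% (74.2 to 85.0) and 77.0% (70.9 to 82.3). The intervals of the quartiles were thus apart for Kif11 and Kif23 and overlapped for Kif5b. Kif11 and Kif23 are among the steepest mitotic members, and the shares of the gentler ones are not given. The lowest quartile stands in for a background here, and the part of free RNA in its shares was not tested. Thinning left out 1 cell of the highest quartile and 0 of the lowest. The variance over the mean of thinned counts was 1.04 to 1.28 at the median mitotic member of the 6 named pools and 0.95 to 1.22 at the median of Kif5b and Kif3a.

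The pools differed in how many cells stood low in G2/M. The lowest G2/M quartile of the library held 8.98% of FACS CFU-E (5.11 to 14.4) and 48.5% of FACS BFU-E (41.9 to 55.1), 10.5% of PE-high (7.28 to 14.6) and 32.2% of PE-low (25.9 to 39.0), and 10.8% of CS CFUE (6.79 to 16.0) and 41.0% of CS BFUE (32.2 to 50.3). In every pair the earlier pool had the larger share at the low end, and the intervals of counting error did not meet. No pool has a replicate, so these intervals do not show whether the difference would recur in other samples. In the hashed library 79 of the 226 cells of the lowest quartile were rich in granulocyte and monocyte transcripts. In the CITE-seq library 78 of 614 were. The pool shares were not taken without these cells, so their part in the difference was not tested. The highest quartile held 29.3% of FACS CFU-E (22.6 to 36.9) and 18.5% of FACS BFU-E (13.7 to 24.0), 27.9% of PE-high (22.8 to 33.4) and 24.5% of PE-low (18.8 to 30.9), and 29.2% of CS CFUE (23.0 to 36.2) and 24.6% of CS BFUE (17.2 to 33.2). At this end the later pool of each pair had the larger share, and the intervals of counting error overlapped. For the same reason this overlap does not show that the shares are equal.

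Within the quartiles the FACS difference of the mitotic sum was not even. In the lowest quartile, with 15 FACS CFU-E cells, FACS CFU-E had 405 CPM and FACS BFU-E 279 CPM, a ratio of 1.45 (1.25 to 1.68). In the next 3 quartiles the ratios were 1.01 (0.92 to 1.12), 0.90 (0.82 to 0.99) and 0.94 (0.88 to 1.01). With equal weight for the 4 quartiles the ratio was 1.00, against 1.25 as found. From the lowest quartile to the third, the PE pair had ratios of 1.18 (1.05 to 1.34), 0.94 (0.87 to 1.02) and 0.89 (0.83 to 0.96). Over the same quartiles the CS pair had 1.27 (1.06 to 1.52), 0.83 (0.73 to 0.95) and 0.93 (0.84 to 1.04). In the highest quartile the mitotic sum was 1013 CPM in PE-high and 1095 CPM in PE-low, a ratio of 0.93 (0.87 to 0.98), and 850 CPM in CS CFUE and 1097 CPM in CS BFUE, a ratio of 0.77 (0.72 to 0.84).

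**Figure D5:**
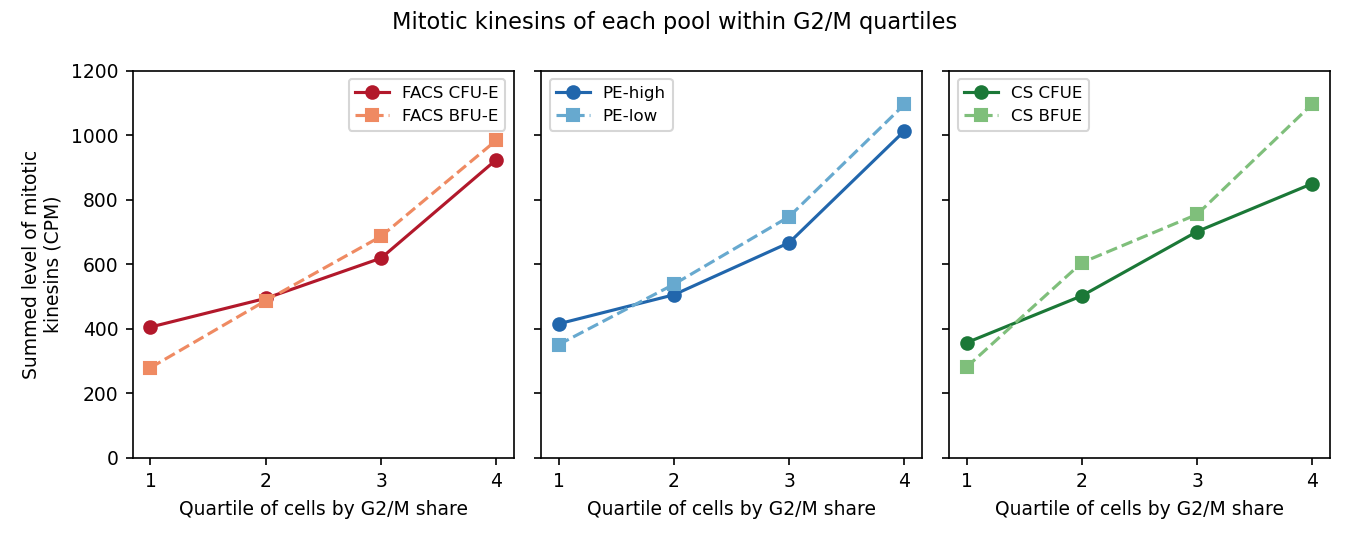
Summed level of the 11 mitotic kinesins in CPM by quartile of the cells of the library from the lowest (1) to the highest (4) G2/M share, with 1 panel for each stage pair and the later pool as solid lines. The later pool is above the earlier one in quartile 1 of every panel and below it in quartile 4.

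The genes called in the FACS pair were read in the same quartiles. With equal weight for the quartiles, Kif23 had a ratio of 1.22, Kif20a 1.20, Kif18a 1.27 and Kif14 1.12, all under 1.5-fold, whereas Kif3a had 1.58. Within the highest quartile Kif3a had 38.4 CPM in FACS CFU-E and 21.7 CPM in FACS BFU-E, a ratio of 1.77 (1.16 to 2.76), and Kif23 had 88.9 CPM in FACS CFU-E and 81.5 CPM in FACS BFU-E, a ratio of 1.09 (0.86 to 1.39). In the lowest quartile, on 15 FACS CFU-E cells, Kif23 had 26.0 CPM in FACS CFU-E and 12.1 CPM in FACS BFU-E, a ratio of 2.15 (1.08 to 4.04), and Kif3a had a ratio of 1.70 (0.99 to 2.79). From the second quartile to the third, Kif23 had 1.69 (1.05 to 2.78) and 1.04 (0.75 to 1.47), and Kif3a had 1.34 (0.90 to 2.00) and 1.56 (0.96 to 2.63). Kif3a without cells rich in granulocyte and monocyte transcripts had 1.36 in the FACS pair, 1.26 in the PE pair and 1.55 in the CS pair.

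The method comparisons set the magnet pool beside the FACS pool of like stage. The mitotic sum was 679 CPM in PE-low and 528 CPM in FACS BFU-E, a ratio of 1.28 (1.23 to 1.34), and 699 CPM in PE-high and 658 CPM in FACS CFU-E, with 1.06 (1.02 to 1.10) as the ratio. The transport sum was 251 CPM in PE-low and 233 CPM in FACS BFU-E, a ratio of 1.08 (1.01 to 1.15), and 241 CPM in PE-high and 210 CPM in FACS CFU-E, with 1.15 (1.08 to 1.23) as the ratio. These pairs use the pools of the stage pairs again, so their values are not independent of them.

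Of 12 members at 20 CPM or more, 1 was called between PE-low and FACS BFU-E, where 0.391% of genes were higher and 0.515% lower. It was Kif23, with 58.0 CPM in PE-low and 33.4 CPM in FACS BFU-E, a ratio of 1.74 (1.48 to 2.05), and 1.28 without cells rich in granulocyte and monocyte transcripts, which ended the call. Between PE-high and FACS CFU-E 0 of 14 members were called, where 0.759% of genes were higher and 0.148% lower. At 5 CPM or more, where 1.66% of genes were higher and 1.73% lower, Kif13b was lower in PE-low than in FACS BFU-E, with 7.90 and 13.2 CPM. At that level, where 2.53% of genes were higher and 0.588% lower, Kif16b and Kif1b were higher in PE-high than in FACS CFU-E, with ratios of 1.61 (1.11 to 2.39) and 1.52 (0.97 to 2.43), which were 1.05 and 1.14 with cells thinned to 10000 UMIs.

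The partners of the kinesins were read from lists made for this family. Of 27 spindle and cytokinesis partners at 20 CPM or more, 5 were higher in FACS CFU-E than in FACS BFU-E (Prc1, Aurka, Plk1, Cit and Hmmr) and 0 lower, with a median log2 ratio of 0.21, against 0.02 over all genes, of which 8.66% were higher and 10.2% lower. The largest ratios were those of Aurka, a spindle pole kinase, at 1.73 (1.51 to 1.98), Plk1, a mitotic kinase, at 1.68 (1.5004 to 1.88), and Cit, the citron kinase that binds Kif14, at 1.67 (1.45 to 1.93). Aurka, Plk1 and Cit had ratios of 1.54, 1.52 and 1.52 in the CS pair and 1.19, 1.17 and 1.35 in the PE pair. In the PE pair 0 of 27 were called, where 5.87% of genes were higher, and in the CS pair 4 of 27 were higher, where 9.99% of genes were, with Ccnb1 (cyclin B) as the fourth. Several of these partners also stand in the G2/M list, so they were not set against its quartiles.

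Of 11 transport partners at 20 CPM or more in the FACS pair, 1 was higher and 0 were lower, where 8.66% of genes were higher and 10.2% lower, with a median log2 ratio of 0.10. It was Trak2, an adaptor that links kinesin-1 to mitochondria, with 33.7 CPM in FACS CFU-E and 14.2 CPM in FACS BFU-E, a ratio of 2.37 (1.86 to 3.02). Trak2 had 29.9 CPM in PE-high and 15.7 CPM in PE-low, a ratio of 1.91 (1.53 to 2.39), and 24.3 CPM in CS CFUE and 13.5 CPM in CS BFUE, a ratio of 1.81 (1.28 to 2.61), the last below the level of 20 CPM. It was thus higher in the later pool of all 3 pairs while the heavy chain Kif5b was level. The next largest were the dynein light intermediate chain Dync1li2 at 1.44 (1.13 to 1.84) and Borcs5, a subunit of the lysosome-bound BORC complex, at 1.42 (1.11 to 1.81). At 5 CPM or more, 2 of 19 transport partners were lower in the FACS pair, 2 of 19 in the PE pair and 4 of 20 in the CS pair, against 17.1%, 14.1% and 16.6% of genes, and Trak2 was the 1 higher in each. Kifap3 and Arl8a, a small GTPase of lysosomes, were lower in all 3 pairs, and Arl8a had ratios of 0.55 (0.38 to 0.78), 0.54 (0.40 to 0.72) and 0.59 (0.39 to 0.90). The kinesin light chain Klc4 reached 5 CPM in the CS pair only, where it was lower at 0.28 (0.15 to 0.53). Below that level it was also lower in the FACS pair, at 0.38 (0.20 to 0.68), and the PE pair, at 0.54 (0.33 to 0.89). The adaptor Trak1 was past 1.5-fold lower in the CS pair alone, at 0.53 (0.32 to 0.89).

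Of 6 tubulins at 20 CPM or more, 0 were past 1.5-fold in the FACS pair and the PE pair. In these pairs 8.66% and 5.87% of all genes were higher and 10.2% and 7.55% lower. The median log2 ratios of the tubulins were 0.11 and 0.10, against 0.02 and 0.00 over all genes. In the CS pair, where 9.99% of genes were higher and 9.38% lower, 1 tubulin was lower. It was the alpha tubulin Tuba4a, with 142.0 CPM in CS CFUE and 229.7 CPM in CS BFUE, a ratio of 0.62 (0.56 to 0.68). Tuba4a was also below its earlier pool within 1.5-fold in the other pairs, at 0.67 (0.63 to 0.72) in the FACS pair, where it stood farthest from 1 of the 6, and 0.78 (0.74 to 0.83) in the PE pair. The highest ratios in the FACS pair were those of the beta tubulins Tubb4b at 1.28 (1.24 to 1.32) and Tubb5 at 1.11 (1.08 to 1.15), and of gamma tubulin Tubg1, the nucleator at the centrosome, at 1.18 (1.03 to 1.36). Tubb4b had 1409 CPM in FACS CFU-E and 1100 CPM in FACS BFU-E, several times the level of any kinesin.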

How the data were processed

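The build mm10, Scanpy and Cell Ranger 4.0.0 are named in the submitters' processing notes. The authors deposited 1 cell-by-gene table whose values are natural log (ln) values of 1 plus the UMIs per 10000 of the cell. The log was undone and each cell was divided by its smallest nonzero value, which gave whole UMIs (tolerance 0.02) for 100.0% of 16419767 nonzero values, 6863 to 49971 per cell over 3357 cells. Pool names came from the deposited cell table, and 2 cells of the hashed library had none. No cell was removed, and no doublet caller was run here. Gene IDs were paired with symbols for 17592 of 17608 genes.

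UMIs were summed per pool. Levels have exact Poisson intervals, ratios exact conditional binomial intervals and shares Clopper-Pearson intervals, all at 95% and covering counting error only. With 1 sample a group no p-value was computed. Members with a mean of at least 20 CPM over the 6 named pools are named with full values, with the 3 partners of each list with the largest ratio in the FACS pair. Any other named gene was chosen after its values were seen. The members and lists were chosen with earlier results of these data known. A gene of the CFU-E stage marker list is not reported here and was left out of it. Deposited UMIs were recovered rather than read as counts, and the calculation was tested on simulated data. Alternatives were other scalings, filters and fold limits, equal G2/M quartiles, thinning, and leaving out cells rich in granulocyte and monocyte transcripts or globin. Protein sequences were not used here. Python 3.11.15, numpy 2.4.6, scipy 1.17.1, pandas 2.3.3 and matplotlib 3.10.9 were used.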

Additional observations from a re-analysis of the deposited data

How the results depend on the processing

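Each pool is 1 sample, so no replicate could be left out. No paired analysis was possible because no pool has a replicate. Of 690 ratios of the 23 members under the alternatives, 639 stayed within the counting interval of the value as reported, 51 lay outside it and 0 changed direction after being called. The median of all genes moved by less than 0.1 on the log2 scale under median-of-ratios scaling in all 5 comparisons, and no transport sum left its interval between pools. The cause of the changes below was not tested, other than those made by the setting's own limit on level or fold. The ratio of the mitotic sum, reported as 1.25, 1.03, 1.04, 1.28 and 1.06 for the FACS, PE, CS, PE-low over FACS BFU-E and PE-high over FACS CFU-E comparisons, changed as follows. Without cells rich in granulocyte and monocyte transcripts it was 1.18, 1.09, 1.12 and 1.17 in the first 4. With equal weight for the G2/M quartiles it was 1.00, 0.95, 0.88 and 1.12 in the first 4. Without globin-rich cells it was 0.95 in the PE and 0.98 in the PE-high over FACS CFU-E comparison. With cells thinned to 10000 UMIs it was 1.09 in the PE, 1.11 in the CS and 1.12 in the PE-high over FACS CFU-E comparison. The number of members called, reported as 5, 1, 1, 1 and 0 in the same order, was 10, 5, 6, 2 and 2 at a level of at least 5 CPM, an alternative chosen after seeing the data, and 10, 8, 9, 7 and 3 with no filter on level. It was 0 in each of the 5 with a ratio of 2. In the FACS comparison it was 3 with median-of-ratios scaling (Kif18a, Kif23 and Kif3a), 1 without cells rich in granulocyte and monocyte transcripts (Kif23), 1 with equal quartiles (Kif3a), 2 with thinning and 2 at 50 CPM in either pool. In the PE comparison it was 0 with equal quartiles, 5 with thinning and 0 at 50 CPM, and without globin-rich cells Kif3a was called in place of Kif18a. In the CS comparison it was 2 with equal quartiles and 0 at 50 CPM. Between PE-low and FACS BFU-E it was 0 without cells rich in granulocyte and monocyte transcripts, 0 with equal quartiles and 2 with thinning, and between PE-high and FACS CFU-E it was 1 with thinning. The ratio of the mitotic sum between G2/M quartiles, reported as 3.04 in the hashed and 2.74 in the CITE-seq library, was 2.38 and 2.25 with quartiles by the S and G2/M lists together and 2.72 and 2.61 without cells rich in granulocyte and monocyte transcripts, and 3.27 with thinning in the hashed library. The transport ratio of the CITE-seq library, reported as 1.12, was 1.03 by both lists together. Thinned ratios rest on 1 random draw of 10000 UMIs per cell, in which members near 20 CPM have few UMIs. The depth limits members under about 5 CPM most, and no ratio is given for the 13 members with a mean below that level.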
